A study of Mus musculus with 7 samples.

Results

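Ligands, receptors, SMADs, ID proteins and antagonists of the TGF-beta, BMP and activin pathway were followed in whole mouse uterus. The members were taken by name, as 51 gene symbols out of 24964 symbols in the deposited table, and all 51 were found there. By role they were 19 ligand or hormone genes, 12 receptor genes, 8 SMAD genes, 4 Id genes and 8 genes for antagonists. RNA was sequenced in 7 libraries of whole uterus from mice aged 12 weeks, all recorded as in diestrus. The control group held 3 libraries (replicates 1, 2 and 4) of genotype Pgrcre/+. The other group held 4 libraries (replicates 1 to 4) of genotype Pgrcre/+Foxl2LsL/+, called Foxl2LsL here. Both groups thus carried Cre recombinase at one copy of the progesterone receptor gene, a receptor made in epithelium, stroma and muscle of the uterus. Nothing in the labels says whether a library came from 1 mouse or several, so p-values measure the spread between these libraries.

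Ligands of this family are secreted dimers that bring together type I and type II receptor kinases. The TGF-beta and activin branch then acts through SMAD2 and SMAD3, and the BMP branch through SMAD1, SMAD5 and SMAD9, each with the shared partner SMAD4. SMAD6 and SMAD7 inhibit the signal, Id genes are classic direct targets of BMP signalling, and noggin, chordin, gremlin and follistatin bind ligands outside the cell. In the uterus the family is known for roles in stromal decidualization, gland formation and the response to progesterone.

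The study's title concerns excess FOXL2, a forkhead transcription factor, but the level listed for Foxl2 did not separate the groups. It stood at 11.1, 19.3 and 12.9 FPKM (a fragment count scaled to gene length and library size) in controls 1, 2 and 4, and at 12.7, 14.3, 14.8 and 17.2 FPKM in Foxl2LsL libraries 1 to 4. The groups overlapped, with a log2 fold change of 0.06 (limma adjusted p 0.818). Whether transcripts of the Foxl2LsL allele enter this value is not given in the sources used here, and exons of Foxl2 overlap Foxl2os on the opposite strand. Every direction below therefore refers to the libraries labelled Foxl2LsL. The fragment totals behind the FPKM scaling, worked out from the values themselves, were 47800000 to 67300000 per library. Listed markers of uterus were present in both groups, and those of several compartments differed. Summed FPKM of 8 gland markers was 72.3 to 95.8 in controls and 19.4 to 23.8 in Foxl2LsL, where 3 of 4 tested members were lower. The sum of 10 stroma markers was 874 to 1998 against 685 to 927, with 6 of 10 lower. All 10 proliferation markers were lower, and 7 of 10 estrogen response genes were higher. Lower and higher mean here an adjusted p under 0.05 in limma, as reached by 23.9% and 16.7% of all tested genes. Control 4 had the highest sum of progesterone response genes, 209 FPKM against 106 and 117 in the other controls. Control 2 had 291 FPKM of the oviduct gene Ovgp1, which was at 1.65 to 19.7 FPKM elsewhere. Ovgp1 alone made up most of the sum of the 4 listed oviduct markers in control 2, 319 FPKM. The rest of that list added little to it. Adipocyte markers summed to 102 FPKM in control 4 and to 135 and 269 FPKM in Foxl2LsL 2 and 3, against 0.460 to 18.9 FPKM in the remaining libraries. The part of these differences in the results below was not tested.

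Of the 51 members, 44 had a mean of at least 1 FPKM over the libraries and were tested, and 7 were not (Bmp3, Gdf15, Inhba, Nodal, Amh, Smad9 and Grem1). An adjusted p under 0.05 (limma on log2(FPKM + 1), Benjamini-Hochberg over all 13334 tested genes) was reached by 19 members, 43.2% of those tested, where 40.6% of all tested genes reached it. The share of called members was therefore near the background. Of the 19, 9 were higher and 10 were lower in Foxl2LsL, or 20.5% and 22.7% of the tested members against 16.7% and 23.9% of all tested genes. After quantile normalization the split was 11 higher and 8 lower. Of the called members 7 (15.9% of those tested) had a change of 2-fold or more in FPKM + 1, and 7.78% of all tested genes did. The groups of libraries did not overlap in 19 tested members (43.2%), against 47.6% of all tested genes, and 18 of these 19 were among the called ones. The median log2 fold change was 0.01 over the tested members and -0.05 over all tested genes. Fits without 1 library called 13 to 19 members, of which 12 to 16 were among the 19. Only 11 were called, all of them among the 19, when the 3 libraries richest in adipocyte markers were left out together. That fit kept only controls 1 and 2 and Foxl2LsL 1 and 4, with 41 members tested. It called 4378 of all genes, against 5409 with all libraries. The part of adipocytes in a loss of call in that fit was not tested.

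**Figure D1:**
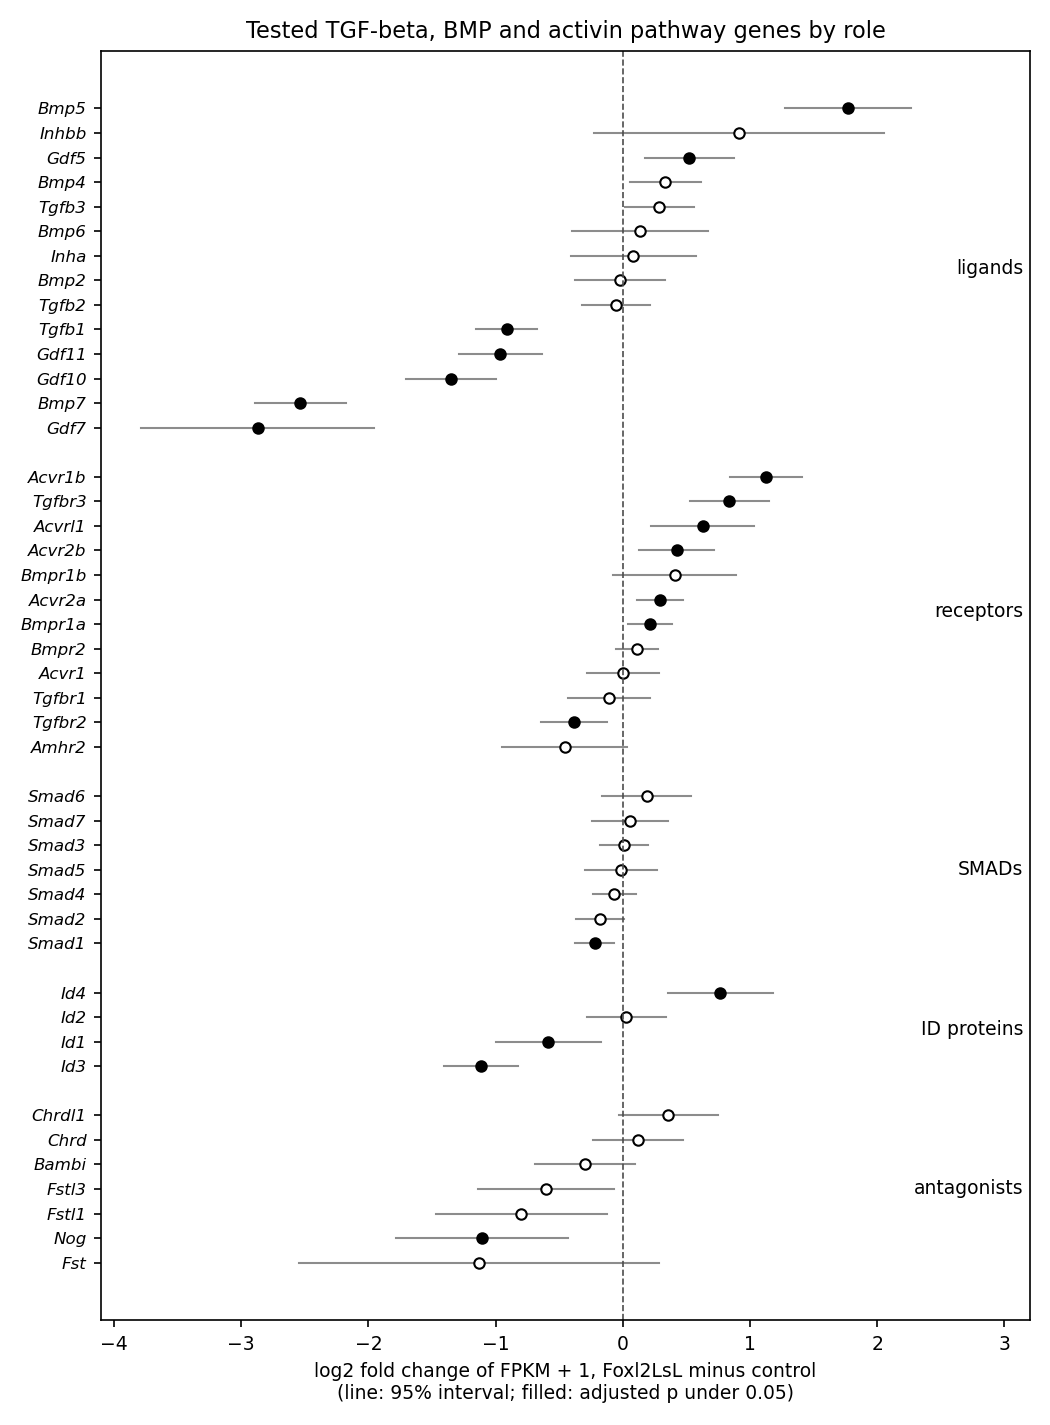
Log2 fold change of FPKM + 1 (Foxl2LsL minus control) for the 44 tested genes, grouped by role, with 95% intervals; filled points have an adjusted p under 0.05. Ligands spread from -2.87 (Gdf7) to 1.77 (Bmp5), while the 7 SMAD genes lie between -0.22 and 0.19.

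Among the ligands, 5 genes fell and 2 rose out of 14 tested, a called share of 50% where 40.6% of all tested genes were called. The largest falls were those of Gdf7 and Bmp7, ligands of the BMP branch, and the largest rise was that of Bmp5, another BMP. The median log2 fold change of the 14 was 0.03. In bulk tissue, fewer cells of a type and less RNA per cell cannot be told apart, and this holds for every difference reported here.

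Gdf7 (chromosome 12, 8297918 to 8301954, minus strand, GRCm38) encodes GDF7, also known as BMP12. It was at 9.17, 24.9 and 33.1 FPKM in controls 1, 2 and 4 and at 1.04, 2.21, 1.93 and 2.42 FPKM in Foxl2LsL libraries 1 to 4. Every control lay far above every Foxl2LsL library, and control 1 had less than the other controls. Controls averaged 22.4 ± 12.1 FPKM (SD, n = 3) and Foxl2LsL libraries averaged 1.90 ± 0.607 FPKM (SD, n = 4). Gdf7 fell by 2.87 on the log2 scale (SE 0.39, limma adjusted p 0.00154). Leaving out control 1 made the log2 fold change -3.39 and leaving out control 4 made it -2.51, and the call remained.

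Bmp7 (chromosome 2, 172868012 to 172940321, minus strand, GRCm38), which encodes a BMP made in uterus and kidney, was at 13.3, 19.5 and 18.1 FPKM in controls and at 1.57, 2.42, 2.41 and 1.95 FPKM in Foxl2LsL. Within each group the libraries lay close together compared with the gap between them. The mean control level was 8.13 times the mean Foxl2LsL level, and the log2 fold change ranged from -2.69 to -2.43 when each library was left out in turn, against -2.53 (SE 0.16) with all 7.

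Bmp5 (chromosome 9, 75775364 to 75900310, plus strand, GRCm38) moved the other way. It was at 1.78, 2.35 and 0.820 FPKM in controls and at 8.90, 6.47, 9.07 and 6.91 FPKM in Foxl2LsL. The lowest Foxl2LsL value was above the highest control value, and the log2 fold change was 1.77 (SE 0.21, limma adjusted p 0.00101). Gdf5, which encodes a BMP-type ligand known from joints, was lower in level: 0.524, 0.937 and 0.717 FPKM in controls, and 2.02, 1.52, 1.20 and 1.23 FPKM in Foxl2LsL. Its log2 fold change of 0.52 (SE 0.15, limma adjusted p 0.0269) rested on 77 to 307 fragments per library, and with a pseudocount of 0.1 in place of 1 it was 0.95. Gdf5 passed the filter through the Foxl2LsL libraries alone, since the controls averaged 0.726 FPKM, so its count among the rises is no support for the ligands as a group. The call of Gdf5 was lost without control 1, Foxl2LsL 1 or Foxl2LsL 2 (limma adjusted p 0.0768, 0.0533 and 0.0564).

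The stretches of 250 bases before the RefSeq start of Gdf7, the largest fall, and Bmp5, the largest rise, are shown because the genes moved in opposite directions. They come from the RefSeq table on GRCm38.p6, in which 35 of the 51 members were matched, with 41 start sites. Capitals mark 3 motifs searched on both strands: TAAACA, a forkhead core, CAGAC, the core of a SMAD binding element, and GGCGCC, a GC-rich motif bound by BMP-branch SMADs.
Gdf7 (chr12:8301955-8302204, minus strand): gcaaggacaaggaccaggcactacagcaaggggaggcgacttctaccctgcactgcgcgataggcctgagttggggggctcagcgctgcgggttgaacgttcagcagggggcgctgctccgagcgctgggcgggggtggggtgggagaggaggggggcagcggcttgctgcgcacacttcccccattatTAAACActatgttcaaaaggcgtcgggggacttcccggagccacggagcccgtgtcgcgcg
Bmp5 (chr9:75775115-75775364, plus strand): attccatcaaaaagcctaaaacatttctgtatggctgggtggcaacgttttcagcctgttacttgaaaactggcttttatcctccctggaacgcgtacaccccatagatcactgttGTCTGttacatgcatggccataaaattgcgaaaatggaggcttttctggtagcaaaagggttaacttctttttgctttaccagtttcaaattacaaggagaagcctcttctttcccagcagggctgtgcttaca
The Gdf7 window held TAAACA at -61 from the start site and neither of the others. It was the single window with TAAACA among the 41 of members (2.44%), where 12.0% of all 32851 windows held it. The Bmp5 window held CAGAC in the reverse orientation at -134, a motif found in 42.2% of all windows and 41.5% of member windows. The motif GGCGCC was in 9.59% of all windows and 22.0% of those of members. A match of letters is not evidence of binding.

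Gdf10, also called BMP3b, had the highest mean level among the ligands. It was at 22.0, 31.0 and 26.7 FPKM in controls and at 7.58, 11, 10.8 and 9.80 FPKM in Foxl2LsL. These groups did not overlap, and Gdf10 fell by 1.35 on the log2 scale (SE 0.15, limma adjusted p 0.000762). Gdf11, a relative of myostatin that signals through activin receptors, was at 3.83, 4.60 and 5.57 FPKM in controls. In Foxl2LsL it was at 1.95, 2.07, 1.41 and 2.16 FPKM. It fell by 0.96 on the log2 scale (SE 0.14, limma adjusted p 0.00193).

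The 3 TGF-beta genes did not share a direction. Tgfb1 (chromosome 7, 25687002 to 25705077, plus strand, GRCm38) was at 5.86, 6.10 and 6.07 FPKM in controls and at 3.0, 2.38, 2.37 and 3.22 FPKM in Foxl2LsL. The controls lay within a narrow band, and every Foxl2LsL library was well below it. Tgfb1 fell by 0.91 on the log2 scale (SE 0.10, limma adjusted p 0.000810). Tgfb3 was at 8.78, 12.2 and 9.29 FPKM in controls and at 12.5, 12.7, 11.2 and 13.4 FPKM in Foxl2LsL, with overlap at control 2. Its log2 fold change of 0.29 missed the threshold (limma adjusted p 0.0819) and passed it without control 2 (0.42, limma adjusted p 0.0192). Tgfb2 was at 2.61 to 3.90 FPKM in controls and at 2.85 to 3.10 FPKM in Foxl2LsL, with a 95% interval of the log2 fold change from -0.32 to 0.21.

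**Figure D2:**
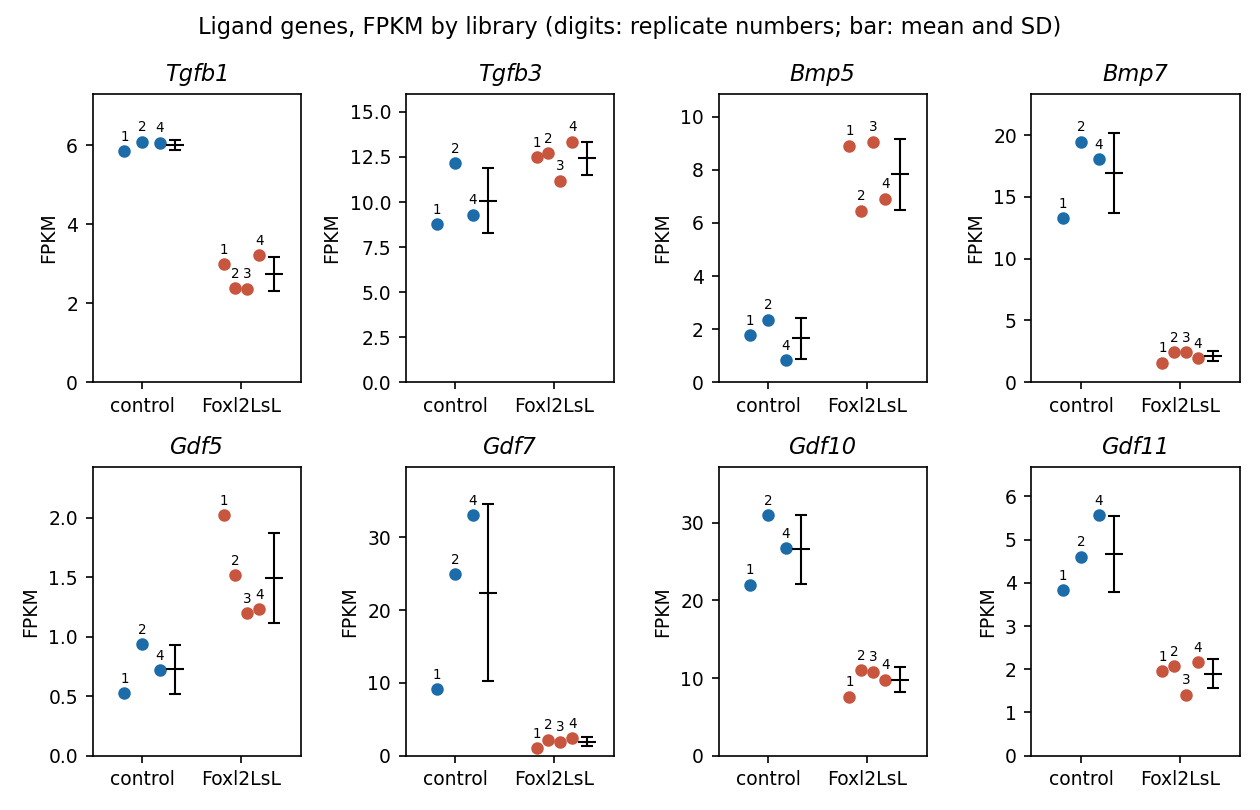
FPKM of 8 ligand genes in each library (y axis from 0; digits give the replicate number, bars the mean and SD of 3 controls and 4 Foxl2LsL libraries). Tgfb1, Bmp7, Gdf7, Gdf10 and Gdf11 are lower in all 4 Foxl2LsL libraries than in any control, Bmp5 and Gdf5 are higher, and Tgfb3 overlaps.

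The makeup of the BMP and GDF ligand transcripts differed between the groups. FPKM is scaled to gene length, so levels of different genes can be added. Over 11 such genes (Bmp2 to Bmp7, Gdf5, Gdf7, Gdf10, Gdf11 and Gdf15) the summed level was 63.4, 95.5 and 93.8 FPKM in controls, and 35.9, 37.5, 36.4 and 37.7 FPKM in Foxl2LsL. Bmp7 made up 19.2% to 21.0% of that sum in controls and 4.37% to 6.61% in Foxl2LsL. Gdf7 made up 14.5% to 35.2% and then 2.90% to 6.43%. The share of Bmp5 was between 0.874% and 2.80% in controls and between 17.2% and 24.9% in Foxl2LsL. For Bmp4 these ranges were 4.92% to 9.10% and 14.9% to 21.4%, and for Gdf10, a large share in both groups, 28.5% to 34.7% and 21.1% to 29.6%. A share moves with the sum as well as with the gene: the level of Bmp4 itself did not pass the threshold. These sums describe the libraries and were not tested.

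**Figure D3:**
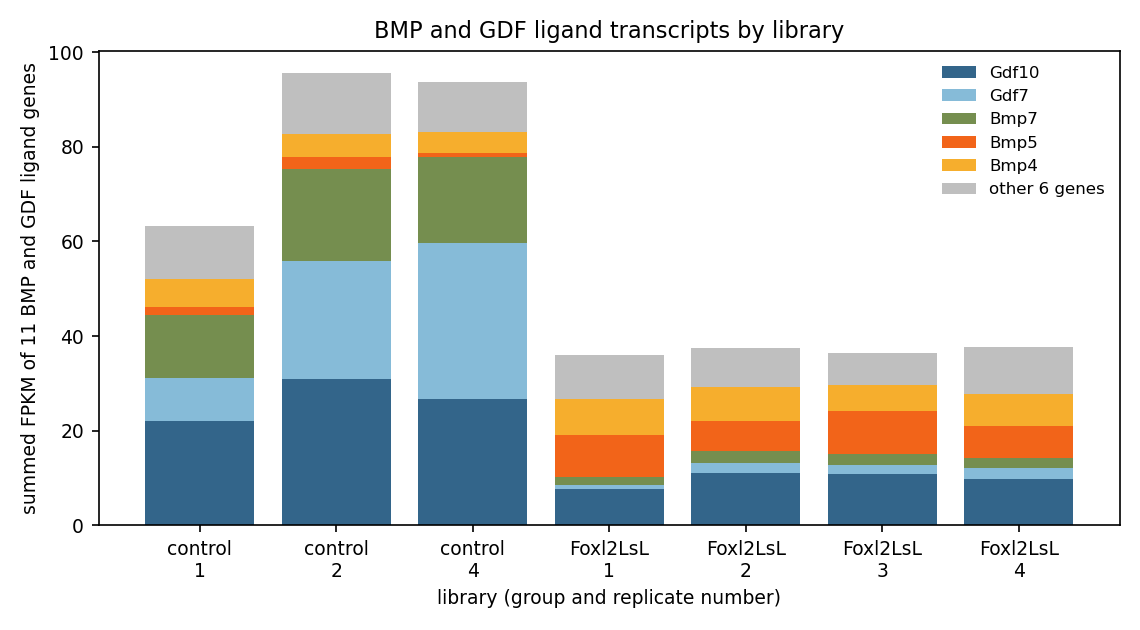
Summed FPKM of 11 BMP and GDF ligand genes in each library, stacked by gene (y axis from 0). The controls reach 63.4 to 95.5 FPKM with large shares of Gdf10, Gdf7 and Bmp7, and the Foxl2LsL libraries reach 35.9 to 37.7 FPKM with larger shares of Bmp5 and Bmp4.

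The other tested ligand genes did not pass the threshold. Bmp4, a BMP of stroma, was at 5.77, 4.92 and 4.62 FPKM in controls and at 7.67, 7.16, 5.43 and 6.59 FPKM in Foxl2LsL (log2 fold change 0.33, limma adjusted p 0.0589). Control 1 overlapped Foxl2LsL 3, and without Foxl2LsL 3 the adjusted p from limma was 0.0263. It also passed without control 1 (limma adjusted p 0.0459), after median centring (limma adjusted p 0.0353) and in 3 further alternatives. Exons of Bmp4 and Bmp6 overlap genes on the opposite strand (Gm15217 and Txndc5), whose reads could be counted with them. Bmp2, the BMP that decidualization depends on, was at 1.23 to 2.25 FPKM in controls and 1.25 to 1.85 FPKM in Foxl2LsL. Bmp6 was at 1.61 to 3.32 and 1.68 to 3.77 FPKM. The 95% intervals of their log2 fold changes were -0.37 to 0.34 and -0.40 to 0.67.

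Inhibin and activin subunit genes were uneven between libraries. Inhbb, the beta B subunit of activin and inhibin, was at 2.53, 9.91 and 1.48 FPKM in controls and at 11, 7.20, 4.61 and 8.99 FPKM in Foxl2LsL. Control 2, the library with high Ovgp1, lay among the Foxl2LsL values. The log2 fold change of Inhbb was 0.91 (SE 0.49, limma adjusted p 0.172) with all libraries and 1.54 (limma adjusted p 0.0138) without control 2. Without control 4 it was 0.47 (limma adjusted p 0.441). Inha, the alpha subunit, was at 4.75, 6.48 and 5.28 FPKM in controls and at 9.22, 4.58, 5.34 and 5.09 FPKM in Foxl2LsL. Foxl2LsL 1 lay well above the range of the controls, and Foxl2LsL 2 slightly below it. Inha and Amh are well known from ovarian granulosa cells. Here the 8 granulosa cell and oocyte markers summed to 0.524, 2.0 and 0.810 FPKM in controls 1, 2 and 4. In Foxl2LsL libraries 1 to 4 they summed to 2.32, 0.700, 1.53 and 1.19 FPKM. Within each group the libraries had the same order in this sum as in Inha. The aromatase gene Cyp19a1 and the receptor gene Fshr were near 0. All 8 markers were below the filter, and the part of such cells in the level of Inha was not tested.

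Members below the filter are given as levels only. Bmp3 was at 0.813 to 1.89 FPKM in controls and at 0.256 to 0.658 FPKM in Foxl2LsL, without overlap. Inhba, the beta A subunit of activin, was at 0.566 to 0.893 and 0.240 to 0.586 FPKM. Amh, the anti-Müllerian hormone gene, was at 0.366 to 0.606 and 0.163 to 0.385 FPKM, and Gdf15, a stress-induced member, at 0.280 to 1.64 and 0.250 to 0.511 FPKM. The groups overlapped in these 3 genes. Nodal had at most 3 fragments in any library.

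Of 12 receptor genes, all of them tested, 6 rose and 1 fell, and their median log2 fold change was 0.26. The called share was 58.3%, against 40.6% of all tested genes, and the share higher was 50%, against 16.7%. This count depended on single libraries. It was 2 without control 2, 4 without control 4, 3 without Foxl2LsL 3 and 4 without Foxl2LsL 4, 3 without the libraries richest in adipocyte markers, and 2 with the replicate block. Calls over all genes fell too, from 5409 to 3840, 5318, 3972, 4174, 4378 and 3240 in the same order. Acvr1b and Tgfbr3 kept their calls under every alternative.

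Acvr1b (chromosome 15, 101174067 to 101213684, plus strand, GRCm38) encodes ALK4, the type I receptor for activin. It was at 11.1, 10.6 and 8.30 FPKM in controls and at 23.3, 19.3, 24.1 and 25.1 FPKM in Foxl2LsL. All Foxl2LsL libraries were far above the controls, with a log2 fold change of 1.13 (SE 0.12, limma adjusted p 0.000710). Tgfbr3 (chromosome 5, 107106570 to 107289629, minus strand, GRCm38) encodes betaglycan, a coreceptor for TGF-beta2 and inhibin. It was at 10.2, 11.6 and 15.8 FPKM in controls and at 23.4, 22.4, 21.6 and 23.9 FPKM in Foxl2LsL. Again the groups stood apart, and the log2 fold change was 0.84 (SE 0.13, limma adjusted p 0.00268).

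The type II activin receptor genes rose by smaller amounts. Acvr2a was at 4.99, 5.13 and 4.89 FPKM in controls and at 6.49, 7.02, 5.89 and 6.06 FPKM in Foxl2LsL (log2 fold change 0.29, limma adjusted p 0.0206). Acvr2b was at 3.16, 2.68 and 2.12 FPKM and then at 3.33, 4.49, 4.06 and 3.67 FPKM (log2 fold change 0.42, limma adjusted p 0.0324). In both genes the lowest Foxl2LsL value lay above the highest control value, in Acvr2b by little. The call of Acvr2a, whose exons overlap Orc4 on the opposite strand, was lost without control 2 (limma adjusted p 0.0519). It was also lost without the 3 libraries richest in adipocyte markers and with the replicate block (limma adjusted p 0.0785 and 0.0558). Acvr2b lost its call without control 2, control 4 or any of Foxl2LsL 2, 3 and 4 (limma adjusted p 0.0612 to 0.0810). After rescaling of the libraries to a common sum its limma adjusted p was 0.0512. Without the 3 libraries richest in adipocyte markers the log2 fold change of Acvr2b was 0.20 (limma adjusted p 0.238).

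Acvrl1 encodes ALK1, a type I receptor of endothelial cells. It was at 7.15, 10.3 and 12.8 FPKM in controls and at 16.2, 13.5, 16.6 and 17.0 FPKM in Foxl2LsL (log2 fold change 0.63, SE 0.17, limma adjusted p 0.0234). Of 8 endothelial markers, 6 (75%) were lower and 1 (12.5%) was higher in the same libraries. Over all tested genes these shares were 23.9% and 16.7%. The endothelial markers summed to 171 to 214 FPKM in controls and 130 to 152 FPKM in Foxl2LsL. Acvrl1 thus differed in direction from most of that list. Its adjusted p rose to 0.0525 to 0.0619 (limma) without control 2 or without Foxl2LsL 1, 3 or 4.

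Bmpr1a, which encodes the BMP type I receptor ALK3, was at 19.2, 20.9 and 19.1 FPKM in controls and at 25.0, 21.7, 22.0 and 23.7 FPKM in Foxl2LsL. Its log2 fold change of 0.22 was just inside the threshold (limma adjusted p 0.0496) and lost its call in 10 of 19 alternatives. These included 6 of the 7 fits that left out 1 library, with limma adjusted p from 0.0654 to 0.121. Tgfbr2, the type II receptor for TGF-beta and the most abundant receptor transcript here, was the receptor gene that fell. It was at 35.3, 46.2 and 40.6 FPKM in controls and at 32.3, 27.9, 28.7 and 34.7 FPKM in Foxl2LsL, with little space between control 1 and Foxl2LsL 4. Tgfbr2 fell by 0.38 on the log2 scale (SE 0.11, limma adjusted p 0.0299), and its call was lost without control 2, control 4, Foxl2LsL 2 or Foxl2LsL 3 (limma adjusted p 0.0565 to 0.105).

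**Figure D4:**
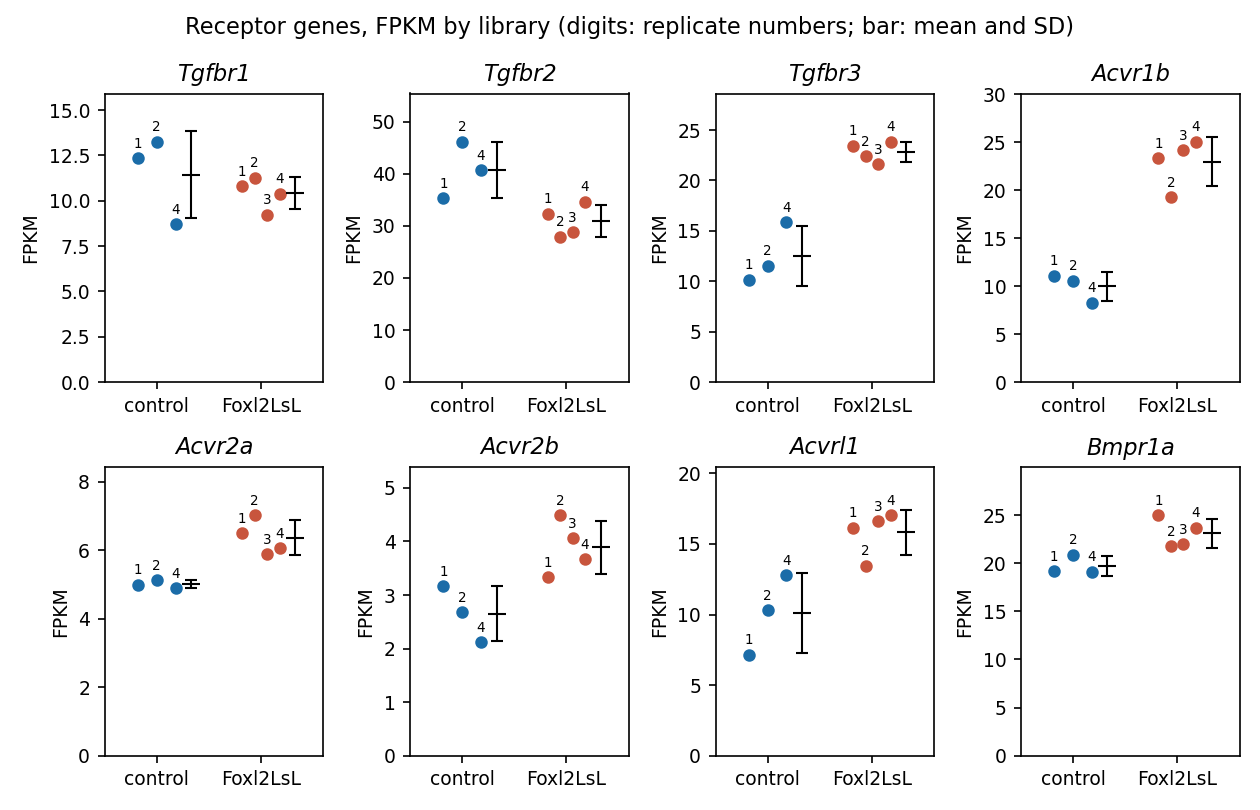
FPKM of 8 receptor genes in each library (y axis from 0; digits give the replicate number, bars the mean and SD). Acvr1b and Tgfbr3 show a wide gap between 3 controls and 4 Foxl2LsL libraries, the gaps of Acvr2b, Bmpr1a and Tgfbr2 are narrow, and Tgfbr1 overlaps.

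The remaining receptor genes overlapped between the groups. Tgfbr1, encoding ALK5, was at 8.72 to 13.3 FPKM in controls and at 9.22 to 11.3 FPKM in Foxl2LsL, with a 95% interval of the log2 fold change from -0.43 to 0.22. Acvr1, encoding ALK2, was at 5.57 to 7.39 and 5.46 to 7.46 FPKM (interval -0.28 to 0.29). Bmpr2, the BMP type II receptor gene, was at 6.66 to 7.41 and 7.30 to 7.87 FPKM (interval -0.05 to 0.27). Bmpr1b, encoding ALK6, was at 1.67 to 2.84 and 2.32 to 4.57 FPKM (interval -0.08 to 0.89). Amhr2, the receptor gene for anti-Müllerian hormone, was at 0.870 to 2.51 and 0.603 to 0.995 FPKM. Its log2 fold change of -0.45 missed the threshold (limma adjusted p 0.123) and passed it without control 1 (limma adjusted p 0.0407). Amhr2 passed the filter through the controls alone, at a mean of 1.54 FPKM against 0.798 FPKM in Foxl2LsL. Neither fit is therefore support for a fall.

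The SMAD genes, which carry the signal to the nucleus, differed little in level between the groups. Of 7 tested, 1 fell and none rose (14.3%, against 40.6% of all tested genes called), and the log2 fold changes ran from -0.22 to 0.19. Smad1, a BMP-branch SMAD, was at 22.7, 20.5 and 20.5 FPKM in controls and at 17.5, 18.7, 18.4 and 17.7 FPKM in Foxl2LsL. The groups did not overlap, but the fall of 0.22 on the log2 scale (SE 0.07, limma adjusted p 0.0326) lost its call in 10 of 19 alternatives. Among these were the fits without control 1, control 2 or Foxl2LsL 1, 3 or 4 (limma adjusted p 0.0628 to 0.0917).

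Smad5, the most abundant SMAD transcript, was at 26.0, 24.5 and 18 FPKM in controls and at 23.3, 22.7, 21.3 and 22.2 FPKM in Foxl2LsL. Smad4, the common partner, was at 24.0, 22.4 and 21.3 FPKM and at 21.6, 23.0, 20.1 and 21.5 FPKM. Both overlapped, and the 95% intervals of their log2 fold changes were -0.30 to 0.27 and -0.23 to 0.10. For the TGF-beta branch, Smad3 was at 12.9 to 15.3 FPKM in controls and 13.1 to 14.9 FPKM in Foxl2LsL (interval -0.18 to 0.20). Smad2 was at 4.81 to 5.35 and 3.94 to 4.68 FPKM, without overlap, and its log2 fold change of -0.18 missed the threshold (limma adjusted p 0.118). The inhibitory Smad6 was at 4.11 to 7.01 and 5.64 to 7.13 FPKM and Smad7 at 4.10 to 6.35 and 4.90 to 5.68 FPKM, so both overlapped. Smad9, below the filter, was at 0.558 to 0.836 and 0.639 to 0.774 FPKM.

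The 4 Id genes, which encode inhibitors of basic helix-loop-helix factors, split by member. Id1 and Id3 fell, Id4 rose and Id2 did not pass the threshold. Id3 (chromosome 4, 136143497 to 136145755, plus strand, GRCm38) was at 116, 88.6 and 87.1 FPKM in controls and at 43.2, 41.5, 51.3 and 40.6 FPKM in Foxl2LsL. No Foxl2LsL library came near the controls, and Id3 fell by 1.11 on the log2 scale (SE 0.13, limma adjusted p 0.000783). Id1 was at 97.7, 89.6 and 67.9 FPKM in controls and at 47.4, 55.8, 73.3 and 49.8 FPKM in Foxl2LsL. Foxl2LsL 3 overlapped control 4 in Id1, and the fall of 0.58 (SE 0.18, limma adjusted p 0.0331) lost its call without control 1, control 2 or Foxl2LsL 1, 2 or 4 (limma adjusted p 0.0652 to 0.103). Without the 3 libraries richest in adipocyte markers the log2 fold change of Id1 was -0.93.

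Id4 (chromosome 13, 48261228 to 48266026, plus strand, GRCm38) was at 15.6, 15.9 and 15.9 FPKM in controls, almost without spread. In Foxl2LsL it was at 18.9, 33.7, 30.1 and 29.7 FPKM, with library 1 closest to the controls. The log2 fold change was 0.77 (SE 0.18, limma adjusted p 0.0120), and 0.56 (limma adjusted p 0.0944) without the 3 libraries richest in adipocyte markers. Id4 shares exon sequence with a gene on the opposite strand, A330033J07Rik, and use of strand is not stated, so its reads cannot be assigned with certainty. Id2, the Id transcript of highest mean level, was at 131, 111 and 87.5 FPKM in controls and at 116, 105, 117 and 104 FPKM in Foxl2LsL. Its 95% interval of the log2 fold change was -0.28 to 0.34.

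The 250 bases before the RefSeq starts of Id3 and Id4 are printed because these members of 1 family moved in opposite directions. The build is GRCm38.p6 and capitals mark the same 3 motifs as above.
Id3 (chr4:136143572-136143821, plus strand): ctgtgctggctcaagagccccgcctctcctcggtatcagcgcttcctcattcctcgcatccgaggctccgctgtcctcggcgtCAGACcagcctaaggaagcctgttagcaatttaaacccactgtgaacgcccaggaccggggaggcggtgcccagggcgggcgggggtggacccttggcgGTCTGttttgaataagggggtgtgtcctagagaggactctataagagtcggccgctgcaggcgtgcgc
Id4 (chr13:48260866-48261115, plus strand): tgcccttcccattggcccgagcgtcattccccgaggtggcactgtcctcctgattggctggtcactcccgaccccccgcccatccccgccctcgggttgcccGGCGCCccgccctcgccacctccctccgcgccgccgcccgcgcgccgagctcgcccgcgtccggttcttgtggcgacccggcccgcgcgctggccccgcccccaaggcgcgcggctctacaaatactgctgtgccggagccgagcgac
The Id3 window held CAGAC at -167 and its reverse complement at -68, and no GGCGCC. By the coordinates given above for Id3 this window lies inside the gene, so these positions hold for the RefSeq start alone. The Id4 window held GGCGCC at -148, as did the Id2 window at -231, and neither held CAGAC. No start of Id1 was matched in the RefSeq table.

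Several antagonist genes differed among the controls. Of 7 tested, Nog alone fell (14.3%, against 40.6% of all tested genes called), and the median log2 fold change was -0.60. Nog (chromosome 11, 89300638 to 89302332, minus strand, GRCm38) encodes noggin, which binds BMPs and keeps them from their receptors. It was at 3.91, 2.35 and 7.70 FPKM in controls and at 1.93, 1.35, 1.27 and 1.23 FPKM in Foxl2LsL. Control 4 was the highest and control 2 was close to Foxl2LsL 1. The log2 fold change of -1.11 (SE 0.29, limma adjusted p 0.0199) was -0.74 (limma adjusted p 0.0174) without control 4. Without the 3 libraries richest in adipocyte markers it was -0.67 (limma adjusted p 0.0832). The call of Nog was lost without Foxl2LsL 3 or 4 (limma adjusted p 0.0536 and 0.0505).

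Control 4 was also highest in genes of the follistatin group, 2 of which are described here because of that library. Fst encodes follistatin, which neutralizes activin and is a listed progesterone response gene. It was at 0.954, 1.20 and 12.1 FPKM in controls and at 0.976, 0.644, 0.809 and 0.599 FPKM in Foxl2LsL. The mean difference in Fst rested on control 4. Without that library the mean level was under 1 FPKM, so it was not tested. With all libraries the log2 fold change was -1.13 (SE 0.61, limma adjusted p 0.172). Fstl3, a follistatin relative, was at 1.18, 2.95 and 3.45 FPKM in controls and at 1.20, 1.23, 1.15 and 1.29 FPKM in Foxl2LsL. Control 1 lay among the Foxl2LsL libraries. The log2 fold change of Fstl3, -0.60, missed the threshold (limma adjusted p 0.0692). It was -0.92 (limma adjusted p 0.00168) without control 1 and -0.40 (limma adjusted p 0.175) without control 4. Exons of Fstl3 and of Chrd overlap genes on the opposite strand (Prss57 and Thpo).

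Fstl1, a secreted follistatin-like protein of stroma and the most abundant transcript of the group, was at 50.4, 87.5 and 135 FPKM in controls and at 52.2, 43.5, 43.6 and 54.0 FPKM in Foxl2LsL. Control 1 again lay within the Foxl2LsL range. The log2 fold change of Fstl1 was -0.80 (limma adjusted p 0.0603) with all libraries and -1.16 (limma adjusted p 0.00457) without control 1. It was -0.46 (limma adjusted p 0.122) without control 4 and -0.32 (limma adjusted p 0.374) without the 3 libraries richest in adipocyte markers. Summed stroma markers had the same order in the controls, at 874, 1318 and 1998 FPKM in controls 1, 2 and 4. Sums of luminal epithelium and of proliferation markers had the reverse order. The part of any of these in the level of Fstl1 was not tested.

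Bambi encodes a receptor-like protein without a kinase that blocks type I receptors. It was at 8.34, 5.62 and 8.66 FPKM in controls and at 5.31, 7.34, 6.17 and 4.83 FPKM in Foxl2LsL. Chrd, the chordin gene, was at 4.19, 3.29 and 5.11 FPKM and at 4.09, 5.87, 4.15 and 4.41 FPKM. Both overlapped, with 95% intervals of -0.69 to 0.10 and -0.23 to 0.47 on the log2 scale. Chrdl1, a chordin relative, was at 0.431 to 1.08 FPKM in controls and 0.872 to 1.47 FPKM in Foxl2LsL (limma adjusted p 0.124). Chrdl1 passed the filter through the Foxl2LsL libraries alone, since the controls averaged 0.734 FPKM. Grem1, the gremlin gene, did not exceed 0.270 FPKM in any library.

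**Figure D5:**
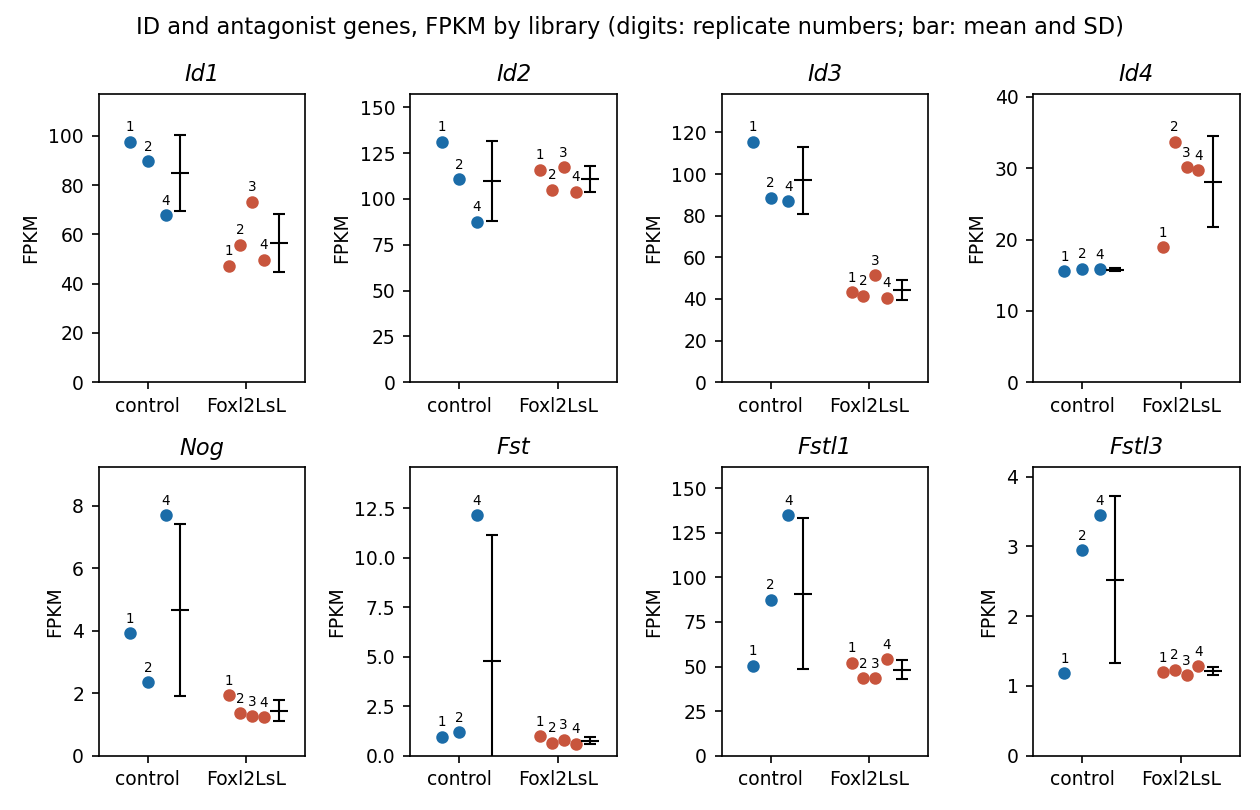
FPKM of the 4 Id genes and 4 antagonist genes in each library (y axis from 0; digits give the replicate number, bars the mean and SD). Id3 is lower and Id4 higher in every Foxl2LsL library, and control 4 is the highest library for Nog, Fst, Fstl1 and Fstl3.

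Some members were also set against each other as ratios of FPKM within each library, where scaling between libraries cancels. Of the partners, Tgfb3, Tgfbr1 and Id2 did not pass the threshold on their own. The 5 pairs were chosen after their values were seen. Bmp5 stood to Bmp7 at 0.0998 ± 0.0476 (SD, n = 3) in controls and at 3.92 ± 1.27 (SD, n = 4) in Foxl2LsL, so the more abundant transcript changed from Bmp7 to Bmp5. Tgfb1 to Tgfb3 was 0.607 ± 0.0923 and 0.220 ± 0.0256. Tgfbr3 to Tgfbr2 was 0.309 ± 0.0721 and 0.742 ± 0.0476. Acvr1b to Tgfbr1, the type I receptors for activin and TGF-beta, was 0.883 ± 0.0779 and 2.22 ± 0.392. Id3 to Id2 was 0.892 ± 0.0981 and 0.399 ± 0.0273. In each pair the groups did not overlap. Because the pairs were chosen for their values, this is a description and no test is given.

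Outside the members, a wider list of 88 pathway genes was examined, of which 65 were tested. Of these 14 rose and 17 fell, 47.7% in all against 40.6% of all tested genes, with a median log2 fold change of 0.01. Among 3 coreceptor genes tested, Rgma (0.29) and Rgmb (0.46), which encode BMP coreceptors, rose. Eng, which encodes endoglin, an endothelial partner of ALK1, stood at 30.4 ± 7.80 FPKM (SD, n = 3) in controls and 13.6 ± 2.22 FPKM (SD, n = 4) in Foxl2LsL, and fell by 1.08 on the log2 scale. Eng moved opposite to Acvrl1. The call of Rgma was lost without control 1, control 2, Foxl2LsL 2 or Foxl2LsL 4, and that of Rgmb without control 2. Exons of Eng and Rgma overlap genes on the opposite strand.

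In the class of latency and processing genes, 5 rose and 4 fell of 16 tested (56.25%, against 40.6% of all tested genes called). Ltbp1, which encodes a protein that anchors latent TGF-beta in the matrix, averaged 9.86 ± 0.430 FPKM in controls and 25.6 ± 1.90 FPKM in Foxl2LsL. Its log2 fold change was 1.29 (SE 0.08, limma adjusted p 0.000131). Tll1, a tolloid protease gene, rose by 1.09 on the log2 scale, and passed the filter only through the Foxl2LsL libraries (controls 0.716 ± 0.282 FPKM). Thbs1, which encodes thrombospondin 1, an activator of latent TGF-beta, fell by 1.09 on the log2 scale. Of 11 tested genes for other secreted antagonists and binding proteins, 2 rose and 3 fell (45.5%, near the share of all tested genes). Dcn, the decorin gene, was higher at 978 ± 57.2 FPKM against 411 ± 50.6 FPKM in controls. Kcp, a chordin-like protein gene, and Tmeff1 had log2 fold changes of -1.09 and -0.87.

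Of 16 intracellular regulators, 2 rose and 4 fell (37.5%, against 40.6% of all tested genes called), none of them by 2-fold. Fkbp1a, which encodes a protein that binds type I receptors, had a log2 fold change of -0.59, as did the kinase gene Hipk2, and the corepressor gene Tgif2 had -0.50. Of 18 genes listed as targets of the family, 3 rose and 5 fell (44.4%, against the same 40.6%). Snai1, the Snail repressor gene, averaged 17.9 ± 5.74 FPKM in controls and 2.66 ± 0.649 FPKM in Foxl2LsL. It fell by 2.34 on the log2 scale (SE 0.24, limma adjusted p 0.000569). Fn1, the fibronectin gene, fell by 1.66 on the log2 scale, while Ctgf, a connective tissue growth factor gene, was higher at 17.1 ± 2.08 FPKM against 8.62 ± 1.04 FPKM. The single other ligand gene tested, Lefty1, missed the threshold (limma adjusted p 0.419).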

How the data were processed

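Total RNA of whole uterus, taken with TRIzol per the labels' protocols, was sequenced. The authors deposited 1 table of FPKM values per gene symbol, with 1 column per library, and of gene lengths in bases, per the file headers. The submitters' processing notes name STAR 2.5.2b, featureCounts 1.5.0-p1, DESeq2 1.12.4 and mm10 without their roles. The annotation, use of strand and filters are not given in the sources used here. FPKM times length fell on whole multiples of 1 step per library (100% of low values within 0.1 of a whole number), which gave the fragments per library. On these fragments limma-voom called 5328 genes, against 5409 from FPKM. Counting error does not cover copies made by PCR.

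Values were taken as log2(FPKM + 1), which understates changes of low genes. Genes with a mean of at least 1 FPKM entered a linear model of all 7 libraries without a block (R 4.3.3, limma 3.58.1, variances moderated along mean level). P-values of the 13334 genes were adjusted by Benjamini-Hochberg. Intervals are 95% intervals from that fit. The limma step was run on simulated data in which fewer genes changed, and by more than most genes did here. That run does not speak for small changes. A permutation test planned for the ratios is not reported, since the pairs were chosen from their values. Sequences are RefSeq's on GRCm38.p6 and coordinates GENCODE M21's on GRCm38, matched by symbol, neither being stated to be the authors' annotation.

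Members and lists were chosen with earlier results of these data known. Values by library were given for called members and, in roles with few calls, for those of highest level. Tgfb3, Bmp4, Inhbb, Inha, Id2, Fst and Fstl3 were given by library outside this rule. From each class of the wider list up to 3 called genes with the largest change were named. Of the marker lists, adipocyte had 0 called genes of 5 tested (limma, 0 at an unadjusted p under 0.05), oviduct 2 of 3 and progesterone response 4 of 7. The lists of leukocyte, mesothelium, smooth muscle, luminal epithelium, skeletal muscle and erythroid markers had 2, 1, 2, 4, 2 and 0 called genes. They had 6, 4, 8, 10, 2 and 0 tested genes, and 40.6% of all tested genes were called. Alternatives covered scaling, pseudocount, filter, variance prior, weights, voom, each library left out and a replicate block.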

Additional observations from a re-analysis of the deposited data

Results flagged for a closer look

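Among the 4 Foxl2LsL libraries, Inha in library 1 stood apart. It was at 9.22 FPKM, and the others were at 4.58, 5.34 and 5.09 FPKM. The gap to the nearest library was 0.836 of the whole range, above Dixon's 95% critical value for 4 samples. Chance flags about 1 group in 20, and 44 members were examined. Without that library the log2 fold change of Inha was -0.11, against 0.08 with all libraries. Library 1 also had the highest sum of granulosa cell and oocyte markers, 2.32 FPKM. The cause was not tested.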

How the results depend on the processing

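Results were recomputed under 19 alternatives, 18 of them planned and 1, without the 3 libraries richest in adipocyte markers, chosen after seeing the data. The 9 calls of Tgfb1, Bmp5, Bmp7, Gdf7, Gdf10, Gdf11, Tgfbr3, Acvr1b and Id3 held in every alternative run, and the other 10 were lost in at least 1. Called members numbered 19, and 11 without the adipocyte-rich libraries (4 higher) and 12 with the replicate block (5 higher). The block used the libraries numbered 1, 2 and 4 of each group. Same-numbered libraries did not deviate together (correlations 0.228, -0.0306 and -0.112), and the labels do not tie them, so the block was kept as an alternative. With it, 3240 genes of all, 15 of the wider list, 2 receptor, 0 SMAD and 0 antagonist genes passed, against 5409, 31, 7, 1 and 1. Without the adipocyte-rich libraries 3 receptor, 0 SMAD and 0 antagonist genes passed. With a mean of at least 5 FPKM, which removed 15 members, 4 ligand genes (against 7) and 0 antagonist genes passed. SMAD calls were 0 after median centring, quantile normalization and voom, and antagonist calls were 4 with array weights. Leaving out 1 library gave 2 to 7 receptor, 0 to 1 SMAD and 0 to 3 antagonist genes. The median member log2 fold change, 0.0068, was -0.057 (without control 4) to 0.081 (without control 1) over these fits, and -0.061 without the adipocyte-rich libraries. Of 830 values for 45 genes, 712 kept direction and call, 60 lost the call, 17 gained it and 41 changed sign, all of the last in 12 uncalled genes. Their log2 fold changes over the fits leaving out 1 library were -0.15 to 0.071 for Tgfb2, -0.14 to 0.14 for Bmp2, -0.030 to 0.33 for Bmp6, -0.11 to 0.19 for Inha, -0.27 to 0.0019 for Tgfbr1, -0.090 to 0.087 for Acvr1, -0.035 to 0.080 for Smad3, -0.17 to 0.082 for Smad5, -0.066 to 0.20 for Smad7, -0.13 to 0.16 for Id2, -0.011 to 0.24 for Chrd and -0.10 to 0.28 for Foxl2. Signs also changed with array weights (Tgfb2 0.0014, Inha -0.080, Id2 -0.029, Foxl2 -0.15), rescaling (Acvr1 -0.012, Smad3 -0.0087), median centring (Bmp2 0.032, Smad5 0.036) and quantile normalization (Tgfb2 0.022, Bmp2 0.010, Smad5 0.038). They changed without the adipocyte-rich libraries in Tgfb2 (0.073), Smad3 (-0.079), Smad7 (-0.061) and Id2 (-0.13), and with the replicate block in Smad3 (-0.00092), Smad5 (0.0080) and Id2 (-0.0027). The cause was not tested.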

Other observations

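Tgfbi, a matrix protein gene named for its induction by TGF-beta, fell into pairs of libraries within Foxl2LsL. It was at 72.1, 102 and 72.1 FPKM in controls 1, 2 and 4, at 330 and 317 FPKM in Foxl2LsL 2 and 3, and at 88.5 and 103 FPKM in Foxl2LsL 1 and 4. Foxl2LsL 2 and 3 were also the Foxl2LsL libraries with the highest sums of adipocyte markers (135 and 269 FPKM), while control 4, with 102 FPKM, was not high in Tgfbi. The part of adipocytes in this was not tested.

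Pathway genes under the filter, chosen after their values were seen, also differed in level. Sost, the sclerostin gene, had 3, 2 and 5 fragments in the controls and 52, 125, 96 and 54 fragments in Foxl2LsL. Acvr1c, which encodes the type I receptor ALK7, was at 0.0570 to 0.0820 FPKM in controls and at 0.221 to 0.455 FPKM in Foxl2LsL. Gdf3, a ligand gene, had 24 to 64 fragments in controls and 1 to 6 in Foxl2LsL. None of these was tested.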
